A study of Mus musculus with 65 samples.

Results

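The genes described here encode the enzymes that write and oxidise 5-methylcytosine in mouse DNA, followed through retinoic acid differentiation of embryonic stem cells. They are Dnmt1, Uhrf1, Dnmt3a, Dnmt3b, Dnmt3l, Tet1, Tet2 and Tet3, which are 8 of the 24465 gene symbols in the RNA count tables. They were chosen by name as a gene family, with earlier results of these data known. Of the 8, 6 passed the filter on low counts and were tested, and 2 (Tet2 and Tet3) had practically no counts and are described from the authors' deposited table. Their 13 promoters, each taken as 2 kb to either side of a transcription start, are among 27032 promoters of the annotation.

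Dnmt1 copies methylation to the new strand after replication, and Uhrf1 recognises half-methylated CpG sites and brings Dnmt1 to them. Dnmt3a and Dnmt3b methylate DNA that was not methylated before, and Dnmt3l is a partner without catalytic activity that stimulates both. The TET dioxygenases oxidise 5-methylcytosine, which opens a path to its removal. In embryonic stem cells Tet1 is known as an abundant TET enzyme, and Dnmt3l and Dnmt3b are known as genes of pluripotent and early epiblast cells.

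Cells kept in leukaemia inhibitory factor (LIF) are day 0. Embryoid bodies grown without LIF and with 10 µM retinoic acid are days 3 and 6. RNA was sequenced in 2019 from wild-type cells at days 0, 3 and 6 with 2 libraries each. In 2020 it was sequenced at day 6 from an H3.3K27A line, an H3.3A knockout line and wild type with 2 libraries each, and at day 0 from the H3.3K27A line and the knockout with 2 libraries each and from wild type with 1. Both edited lines were made with CRISPR/Cas9. The labels do not say which H3.3 gene carries the K27A change or how many clones were used. They also do not say whether RNA duplicates came from separate cultures, so the tests speak only of how far these libraries lie apart. Chromatin of wild-type cells at days 6 and 0 was immunoprecipitated in biological duplicates with antibodies to H3.3K27me3 (a custom antibody), H3K27me3, H3.3 and H3. Trimethylated lysine 27 of histone H3 (H3K27me3) is the mark of Polycomb repressive complex 2, and H3.3 is the H3 variant placed outside replication.

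RNA depth was 6.97 to 12.71 M gene counts per library in 2019 and 14.27 to 22.03 M in 2020. The 16 ChIP libraries held 33.62 to 81.65 M tags and 9608 to 26215 filtered peaks. H3f3a, the gene of H3.3A, had 20.9 and 23.1 CPM (counts per M gene counts of the scaled library) in knockout libraries against 119 and 114 CPM in wild type at day 6, and 22.9 and 21.1 CPM against 129 CPM at day 0. The libraries labelled H3.3K27A were as low, at 20.4 CPM in both at day 6 and 21.9 and 24.2 CPM at day 0. Pluripotency markers (12 genes) summed to 7402 to 7722 CPM at day 0 of 2019 and to 401 to 402 CPM at day 6. Endoderm markers (10 genes) summed to 14340.2 to 21845 CPM in the knockout libraries at day 6, against 4841 to 5865 CPM in wild type. The knockout day 6 libraries also differed from each other, and the values that rest on them and move most are also given without one of them.

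Promoter sequence differed widely within the family. The following 250 bases lie upstream of a start on GRCm38.p6 and are taken from RefSeq, with each CpG in capitals, the dinucleotide that these enzymes modify. Dnmt3b, Dnmt3a and Tet3 are shown because H3K27me3 peaks covered these starts at day 0, and Tet1 and Dnmt3l because their RNA changed strongly while no H3K27me3 peak covered a start.
Dnmt3b, chr2:153649199-153649448, plus strand: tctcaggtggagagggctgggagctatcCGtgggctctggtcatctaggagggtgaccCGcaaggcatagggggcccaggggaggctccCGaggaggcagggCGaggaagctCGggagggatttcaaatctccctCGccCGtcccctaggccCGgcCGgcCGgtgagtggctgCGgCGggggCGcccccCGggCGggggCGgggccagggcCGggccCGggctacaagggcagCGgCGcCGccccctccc
Dnmt3a, chr12:3806730-3806979, plus strand: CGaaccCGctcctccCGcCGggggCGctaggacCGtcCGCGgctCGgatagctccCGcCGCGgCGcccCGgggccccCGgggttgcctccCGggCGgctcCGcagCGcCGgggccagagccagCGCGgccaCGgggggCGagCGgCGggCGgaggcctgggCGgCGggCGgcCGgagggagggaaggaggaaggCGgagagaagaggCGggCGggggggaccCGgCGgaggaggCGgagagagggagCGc
Tet3, chr6:83441679-83441928, minus strand: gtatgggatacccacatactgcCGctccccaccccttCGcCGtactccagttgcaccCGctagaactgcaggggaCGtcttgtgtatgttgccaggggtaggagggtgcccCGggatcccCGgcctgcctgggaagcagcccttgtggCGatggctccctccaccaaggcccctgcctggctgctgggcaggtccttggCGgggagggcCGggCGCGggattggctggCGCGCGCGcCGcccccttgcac
Tet1, chr10:62887325-62887574, minus strand: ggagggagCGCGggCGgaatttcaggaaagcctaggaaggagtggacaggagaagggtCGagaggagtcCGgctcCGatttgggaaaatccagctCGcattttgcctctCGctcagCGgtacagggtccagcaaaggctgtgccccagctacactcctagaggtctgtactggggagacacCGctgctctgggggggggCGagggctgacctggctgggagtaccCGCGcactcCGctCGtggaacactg
Dnmt3l, chr10:78042037-78042286, plus strand: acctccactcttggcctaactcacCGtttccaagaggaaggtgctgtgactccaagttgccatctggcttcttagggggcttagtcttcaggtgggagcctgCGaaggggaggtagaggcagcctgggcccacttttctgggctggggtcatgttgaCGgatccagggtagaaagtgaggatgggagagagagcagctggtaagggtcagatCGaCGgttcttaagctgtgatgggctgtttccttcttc
The Tet3 sequence belongs to its second start, which lies within the gene. The Dnmt3a window held 38 CpG, the Dnmt3b window 21, the Tet3 window 17, the Tet1 window 15 and the Dnmt3l window 5. All 32851 promoter sequences of the same length had a median of 6 CpG with quartiles of 2 and 16. The Tet2 start had the most CpG of the family, 51, and the 3 Dnmt3l starts had 5, 4 and 3. Of the 13 promoters, 12 had a sequence in the table, and 15 sequences in all matched the 8 genes. The promoter without a sequence was the first Tet3 start. Windows of neighbouring Dnmt3a starts overlap, so the 15 sequences are not all separate. The GC box GGGCGG, searched on both strands, was in 11 of these 15 sequences and in 32.74% of all promoters. CCAAT was in 5 of 15 (33.85% of all) and CACGTG in 2 of 15 (6.02%). ATGCAAAT and TTTCCCGC had no match in the 15 sequences and stood in 1.6% and 0.89% of all promoters.

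Maintenance of methylation is carried by Dnmt1 (GRCm38 chr9:20907206-20959888, minus strand) and Uhrf1 (chr17:56303337-56323486, plus strand). Dnmt1 in 2019 wild type had 582 and 574 CPM at day 0, 403 and 409 CPM at day 3 and 424 and 436 CPM at day 6. The day 0 libraries were above all later ones, and days 3 and 6 lay close together. At day 3 Dnmt1 fell by 0.51 ± 0.06 on the log2 scale (SE) relative to day 0 (adjusted p = 9.32e-06, edgeR's quasi-likelihood test with Benjamini-Hochberg adjustment, used for every adjusted p of RNA unless the authors' table is named). Between day 6 and day 3 the difference was 0.08 with an adjusted p of 0.275.

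Uhrf1 had 424 and 467 CPM at day 0, 227 and 228 CPM at day 3 and 208 and 221 CPM at day 6 in 2019. Its day 0 libraries stood well above the others. It fell by 0.97 ± 0.07 on the log2 scale at day 3 (adjusted p = 8.24e-08), and the day 6 against day 3 difference of -0.08 did not pass the test (adjusted p = 0.332). Per kb of exon, Uhrf1 averaged 122 CPM per kb at day 0 and Dnmt1 91.4 CPM per kb, while at day 6 Uhrf1 was at 58.8 and Dnmt1 at 68.0 CPM per kb. The order of the pair by level per length thus differed between the days.

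Among the de novo enzymes, Dnmt3a (chr12:3806980-3914443, plus strand) was the only one of the 6 tested members higher at day 6 than at day 0 in the 2019 counts. It had 347 and 329.7 CPM at day 0, 258 and 251 CPM at day 3 and 475 and 483 CPM at day 6. Day 3 was the lowest and day 6 the highest, with no overlap between days. Dnmt3a fell by 0.41 ± 0.07 on the log2 scale at day 3 relative to day 0 (adjusted p = 9.97e-05) and rose by 0.91 ± 0.06 at day 6 relative to day 3, a 1.88-fold difference (adjusted p = 1.23e-07). Day 6 was 1.42-fold above day 0 (log2 0.50 ± 0.06, adjusted p = 1.10e-05). The antisense gene Dnmt3aos overlaps it and had at most 3 reads in any library.

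Dnmt3b (chr2:153649449-153687730, plus strand) had 357 and 406 CPM at day 0, 62.3 and 54.6 CPM at day 3 and 28.9 and 29.3 CPM at day 6 of 2019. Each day was lower than the one before it, without overlap. It fell by 2.71 ± 0.09 on the log2 scale at day 3 relative to day 0 (adjusted p = 5.63e-11) and by a further 1.00 ± 0.10 at day 6 relative to day 3 (adjusted p = 2.52e-06). At day 6 it was 13.1-fold below day 0 (adjusted p = 4.08e-12).

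Dnmt3l (chr10:78042287-78063622, plus strand) had 334 and 263 CPM at day 0, 21.9 and 19.4 CPM at day 3 and 3.62 and 5.49 CPM at day 6 of 2019. This was the steepest fall among the 6 tested members. Day 3 was 14.4-fold below day 0 (log2 -3.85 ± 0.13, adjusted p = 8.90e-11), day 6 was below day 3 again (log2 -2.20 ± 0.20, adjusted p = 1.27e-06), and day 6 was 66.4-fold below day 0 (adjusted p = 6.22e-12). In bulk RNA, fewer cells that express a gene and less RNA per cell cannot be told apart, for this gene and all others.

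Tet1 (chr10:62804570-62887324, minus strand) had 1119.5 and 1322 CPM at day 0, 84.7 and 91.3 CPM at day 3 and 83.4 and 81.8 CPM at day 6 of 2019. The later days lay together, far below day 0. Tet1 fell 13.9-fold by day 3 (log2 -3.79 ± 0.09, adjusted p = 3.61e-12), and its day 6 against day 3 difference of -0.09 did not pass the test (adjusted p = 0.400). Its course therefore differed from that of Dnmt3b and Dnmt3l, whose further falls at day 6 relative to day 3 were past the threshold, but the difference between the genes was not itself tested.

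**Figure D1:**
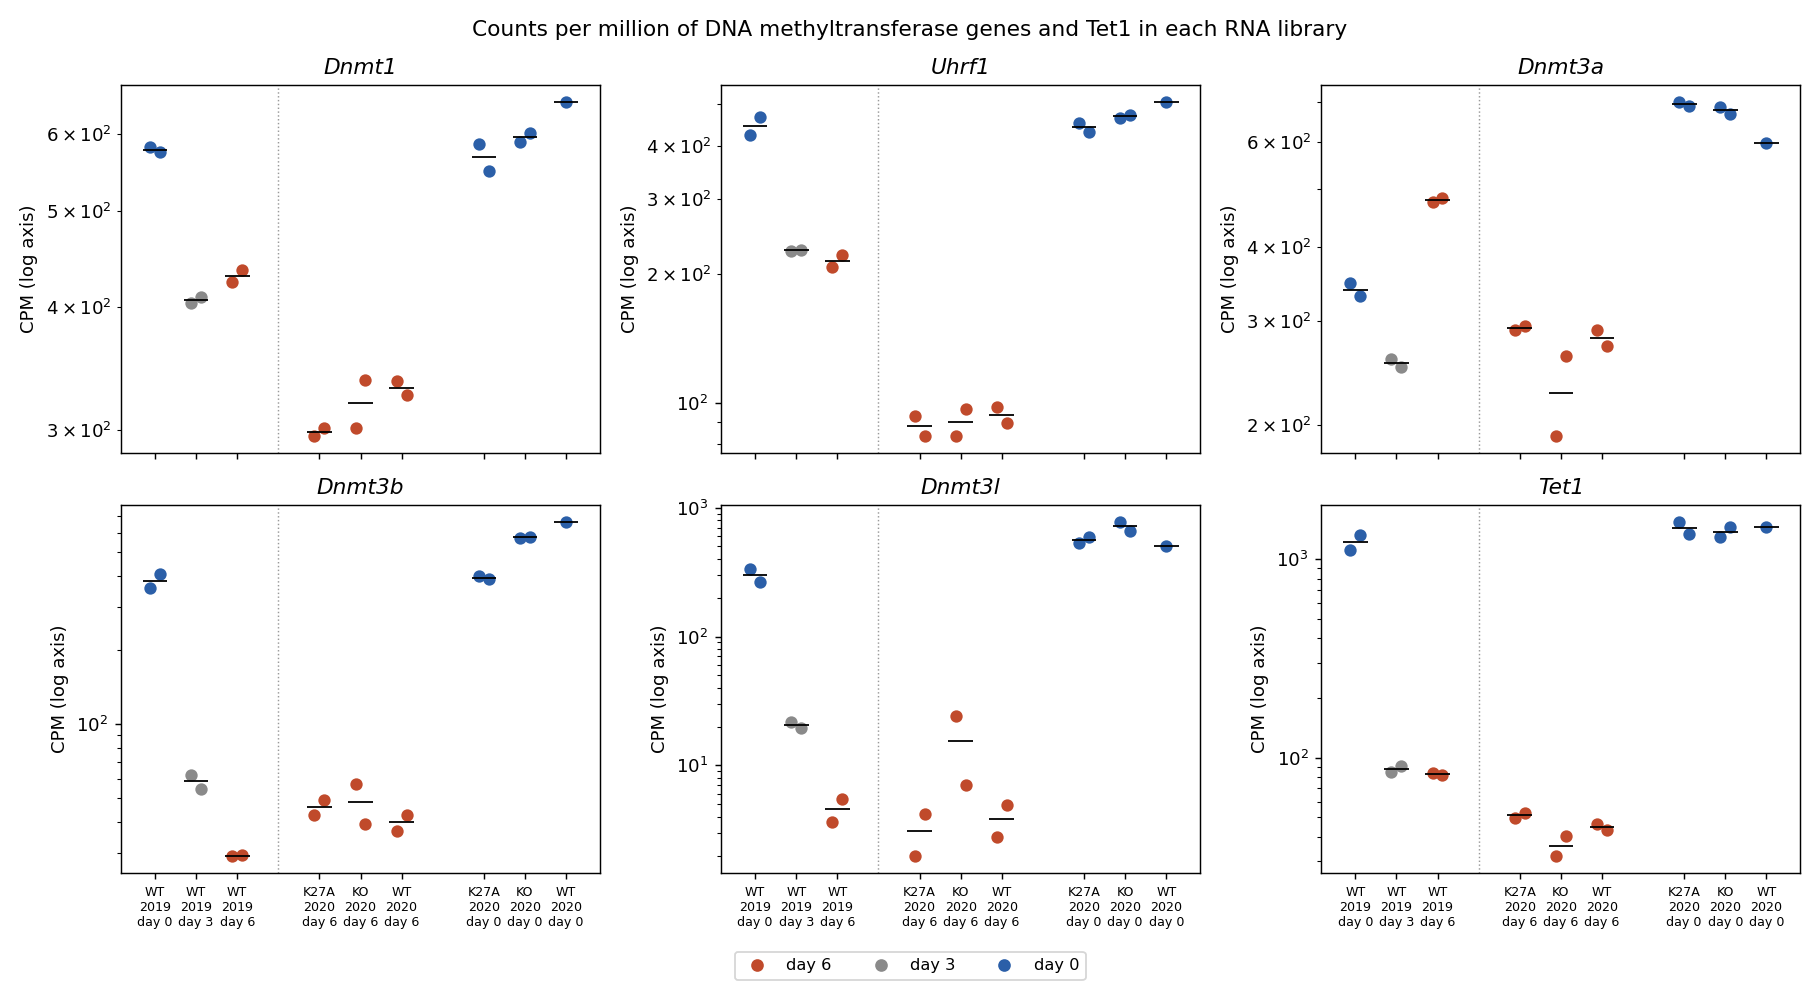
CPM (vertical log axis) of the 6 tested genes in each RNA library, 1 panel per gene. Points are libraries coloured by day and short bars are group means; left of the dotted line are the 2019 wild-type libraries and right of it the 2020 libraries. Dnmt3l, Dnmt3b and Tet1 are far lower at day 6 than at day 0 in each line, and Dnmt3a at day 6 is above day 0 in 2019 and below it in 2020.

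Counted together, 6 of the 6 tested members were lower at day 3 than at day 0 of 2019, where 33.8% of all 13593 tested genes were lower. At day 6 against day 3, 1 member was higher and 2 lower, with 29.4% of genes higher and 27.9% lower. At day 6 against day 0, 5 were lower and 1 higher, with 36.6% lower and 41.4% higher. The median of all genes was 0.06 at day 3 and 0.09 at day 6 on the log2 scale relative to day 0.

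The 2020 wild-type libraries gave 6 of 6 members lower at day 6 than at day 0, against 34.8% of the 14760 genes tested. Dnmt1 had 336 and 325 CPM at day 6 against 647 CPM in the single day 0 library (log2 -0.97 ± 0.09, adjusted p = 6.95e-06). Uhrf1 had 97.7 and 89.8 CPM at day 6 against 507 CPM (log2 -2.43 ± 0.10, adjusted p = 6.27e-08). Dnmt3b had 36.9 and 42.8 CPM at day 6 against 663 CPM (log2 -4.06 ± 0.18, adjusted p = 7.08e-08). In each of these genes both day 6 libraries were far below the day 0 library.

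Dnmt3l had 2.77 and 4.97 CPM at day 6 against 504 CPM at day 0 (log2 -7.04 ± 0.56, adjusted p = 2.84e-06). Tet1 had 46.1 and 43.1 CPM against 1462 CPM (log2 -5.04 ± 0.14, adjusted p = 9.99e-09). Dnmt3a had 289.6 and 272 CPM at day 6 against 598 CPM at day 0, so that it was lower at day 6 in 2020 (log2 -1.09 ± 0.14, adjusted p = 8.77e-05), whereas it was higher at day 6 in 2019. Wild type at day 0 has 1 library here, and its spread is assumed to be that of the other groups.

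The change from day 0 to day 6 in wild type was tested for a difference between the years with all 17 libraries in one fit. Of the 6 members, 4 had a more negative change in 2020, against 19.7% of 15343 genes. The difference, 2020 minus 2019, was -1.61 ± 0.16 for Dnmt3a (adjusted p = 7.07e-06), -1.39 ± 0.13 for Uhrf1 (adjusted p = 5.74e-06), -1.16 ± 0.17 for Tet1 (adjusted p = 2.21e-04) and -0.55 ± 0.10 for Dnmt1 (adjusted p = 0.00123). Scaled by library totals, the Dnmt1 difference was -0.36 and no longer passed (adjusted p = 0.0576). The 2 not past the threshold were Dnmt3b (-0.36, adjusted p = 0.258) and Dnmt3l (-0.999, adjusted p = 0.324). CPM were scaled within each year, and levels on the same day were not tested between the years. On these scales Dnmt3a differed at both ends. Day 6 had 289.6 and 272 CPM in 2020 and 475 and 483 CPM in 2019. Day 0 had 598 CPM in 2020 and 347 and 329.7 CPM in 2019. Neural markers (12 genes) moved with the year. They summed to 350 to 536 CPM in 2020 wild type at day 6 and 1683 to 1949 CPM in 2019 at day 6. In the year contrast, 17 of 21 DNA replication genes and 7 of 12 neural markers were lower, against 19.7% of all genes. No gene of either list was higher. Other lists also had more genes lower than higher. Maintenance and heterochromatin partners had 13 of 21 lower and 0 higher. Germline genes known to be silenced by promoter methylation had 10 of 16 lower and 1 higher. Pluripotency markers had 4 of 12 lower and 3 higher. The part of any list in the result was not tested. The year is also the sequencing run, and the experiment and the run cannot be told apart.

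The same fall was measured in both edited lines, whose 2020 libraries share no sample with wild type in this contrast. All 2020 libraries were fitted together with a shared estimate of the spread, so the tests of the lines are not independent. In H3.3K27A cells all 6 tested members were lower at day 6 (37.2% of all genes were lower), and in the knockout all 6 were lower (36.4%). On the log2 scale Dnmt3b changed by -3.10 ± 0.16 in H3.3K27A and -3.58 ± 0.16 in the knockout. Dnmt3l changed by -7.54 ± 0.56 in H3.3K27A and -5.54 ± 0.48 in the knockout. Tet1 changed by -4.82 ± 0.13 in H3.3K27A and -5.26 ± 0.14 in the knockout, and Dnmt3a by -1.25 ± 0.12 in H3.3K27A and -1.58 ± 0.12 in the knockout. The 6 changes had adjusted p-values of at most 8.07e-06 in these lines. Without knockout day 6 replicate 1 all 6 stayed past the threshold, with Dnmt3l at -6.68 and Dnmt3a at -1.39, and without replicate 2 likewise, with Dnmt3l at -4.90 and Dnmt3a at -1.82.

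**Figure D2:**
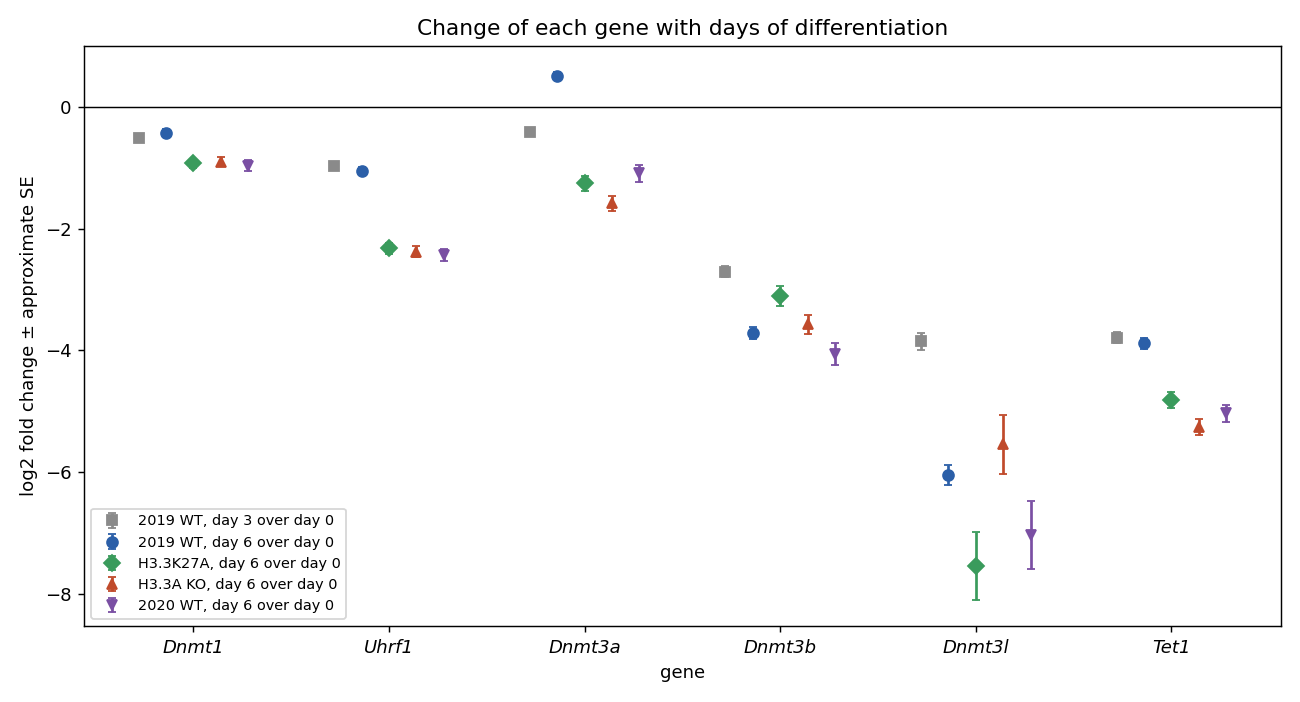
Log2 fold change (vertical axis, with approximate SE) of each tested gene by days of differentiation, for 2019 wild type at days 3 and 6 and for the 3 lines of 2020 at day 6, each over day 0. Every point lies below 0 except Dnmt3a at day 6 of 2019, at 0.50.

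Differences between lines at one day were smaller than these changes. At day 0, no member passed the test in the H3.3K27A line against wild type, where 1.73% of all genes did, or in the knockout against wild type (0.122% of all genes). At an unadjusted p below 0.05, the counts were 1 of 6 for H3.3K27A (1795 of 14760 genes) and 0 of 6 for the knockout (738 of 14760). The member with the largest difference of H3.3K27A from wild type was Dnmt3b, with 398 and 389 CPM in H3.3K27A cells and 568 and 578 CPM in knockout cells, against 663 CPM in wild type. Wild type of the earlier year had 357 and 406 CPM of Dnmt3b at day 0, a range that holds both H3.3K27A values. Those libraries were scaled apart and were not tested against H3.3K27A. Within the same year the H3.3K27A libraries were below the others at day 0, and the knockout libraries lay between. For the knockout it was Dnmt3l, with 775 and 661 CPM against 504 CPM (log2 0.51, adjusted p = 0.998). The log2 difference of Dnmt3b in H3.3K27A from wild type was -0.75 ± 0.17 (adjusted p = 0.0720), and from the knockout -0.54 ± 0.15 (adjusted p = 0.135). No member passed in H3.3K27A against the knockout at day 0 (1.27% of all genes). This comparison had 1 of 6 members and 1804 of 14760 genes at an unadjusted p below 0.05.

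The Dnmt3b call at day 0 depended on the fit. Without the knockout day 6 libraries in the shared estimate of the spread, an alternative added after the data were seen, the difference of H3.3K27A from wild type was -0.73 for Dnmt3b with an adjusted p of 4.78e-05. DESeq2 gave an adjusted p of 0.00967 for the same comparison. At day 6 Dnmt3b had 42.7 and 48.9 CPM in H3.3K27A, 57.0 and 39.3 CPM in the knockout, and 36.9 and 42.8 CPM in wild type, and these ranges overlapped. The change of Dnmt3b with the day was 0.95 ± 0.23 less negative in H3.3K27A than in wild type (adjusted p = 0.121). In this contrast 0.766% of all genes passed and no member did. At an unadjusted p below 0.05, it had 1 of 6 members and 1648 of 14760 genes. Without the knockout day 6 libraries that Dnmt3b difference was 0.92 with an adjusted p of 2.01e-04. The comparisons of both edited lines with wild type share the wild-type libraries, of which day 0 has 1.

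At day 6, Dnmt3l was the member that passed in the knockout against wild type, 1 of 6 members with 11.4% of all genes called. It had 24.1 and 7.10 CPM in the knockout against 2.77 and 4.97 CPM in wild type. The first knockout library held most of this difference, and the second lay just above wild type. The log2 difference was 2.00 ± 0.53 (adjusted p = 0.0406). Without knockout replicate 1 the difference was 0.87 (adjusted p = 0.0787), and without knockout replicate 2 it was 2.66 (adjusted p = 1.93e-06), so that 1 library moved the value by more than 1.5 times. The call was also lost on leaving out either of the 2 wild-type day 6 libraries, with adjusted p = 0.265 and 0.109, and on leaving out any 1 H3.3K27A library or knockout day 0 library, with adjusted p between 0.0571 and 0.0739.

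Marker sums moved with this result. The 10 endoderm markers had sums of 14340.2 to 21845 CPM in the knockout against 4841 to 5865 CPM in wild type. The 12 pluripotency markers had sums of 479 to 765 CPM against 333 to 382 CPM. No marker of either list was at 0 in these groups. Their part in the Dnmt3l result was not tested. Dnmt3a had 192 and 262 CPM in the knockout against 289.6 and 272 CPM in wild type (log2 -0.31, adjusted p = 0.133), and Tet1 31.8 and 40.1 CPM against 46.1 and 43.1 CPM (log2 -0.31, adjusted p = 0.133).

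The H3.3K27A line at day 6 had no member past the threshold against wild type (2.04% of all genes). It had 0 members at an unadjusted p below 0.05, against 2301 of 14760 genes. Against the knockout it had 2 of 6, with 18.7% of all genes called. Dnmt3l had 1.97 and 4.22 CPM in H3.3K27A against 24.1 and 7.10 CPM in the knockout (log2 -2.35 ± 0.55, adjusted p = 0.0178). Tet1 had 49.8 and 52.7 CPM in H3.3K27A against 31.8 and 40.1 CPM in the knockout (log2 0.51 ± 0.12, adjusted p = 0.0190). The groups did not overlap for either gene. Without knockout replicate 1 the Dnmt3l difference was -1.23 (adjusted p = 0.0130) and that of Tet1 0.37 (adjusted p = 0.0191), and without knockout replicate 2 they were -3.01 (adjusted p = 7.10e-07) and 0.69 (adjusted p = 1.86e-04). Endoderm markers moved with this comparison, with 8 of 10 lower. They summed to 3556 to 4489 CPM in H3.3K27A against 14340.2 to 21845 CPM in the knockout, and their part in the result was not tested. Without H3.3K27A replicate 1 the Dnmt3l difference was -1.87 with an adjusted p of 0.160, and then neither gene passed. Without H3.3K27A replicate 2 Dnmt3l passed (adjusted p = 0.0480) and Tet1 did not.

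Day effects did not differ past the threshold for any member, in H3.3K27A minus knockout (5.39% of all genes passed) or in knockout minus wild type (0.0813%). At an unadjusted p below 0.05, H3.3K27A minus knockout had 2 of 6 members and 3164 of 14760 genes. Knockout minus wild type had 1 of 6 members and 1780 of 14760 genes. The member counts past the threshold depended on which knockout day 6 library was left out. With 1 library left out at a time, the Dnmt3l difference ranged from -2.66 to -0.87 in H3.3K27A minus knockout. In knockout minus wild type the Dnmt3l difference ranged from 0.36 to 2.15.

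Tet2 (chr3:133463677-133544390, minus strand) and Tet3 (chr6:83362373-83456392, minus strand) were listed at 0 in the count files, except 1 read of Tet3 in a day 0 library of 2019. This is a property of these files and not a measure of expression, because the authors' deposited table for 2019 wild type lists both. Of the symbols in it, 690 of 11023 with a base mean above 100 had at most 3 reads over all 17 libraries here (6.26%). For Tet2 the authors' deposited table gave 92.6 CPM at day 6 against 238 CPM at day 0, a log2 change of -1.61 (adjusted p = 1.8e-37). For Tet3 the authors' deposited table gave 222 CPM at day 6 against 17.8 CPM at day 0, a log2 change of 3.36 (adjusted p = 1.67e-176), a 10.3-fold rise. Adjusted p-values passed 0.05 for 66.1% of the genes in that table.

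Set per length, the authors' deposited table put Tet1 at 5.49 CPM per kb at day 6 against 68.8 at day 0, Tet2 at 10.1 against 25.8, and Tet3 at 18.9 against 1.52. Tet3 had the highest level per length of the TET genes at day 6, and Tet1 at day 0. Of the 3 genes' summed level per length in the authors' deposited table, Tet3 made up 54.8% at day 6 and 1.58% at day 0. Tet1 made up 15.9% at day 6 and 71.6% at day 0, and Tet2 29.2% at day 6 and 26.9% at day 0. The table gives group means, so no spread between libraries goes with these shares, and neither Tet2 nor Tet3 can be followed at day 3 or in the edited lines.

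**Figure D3:**
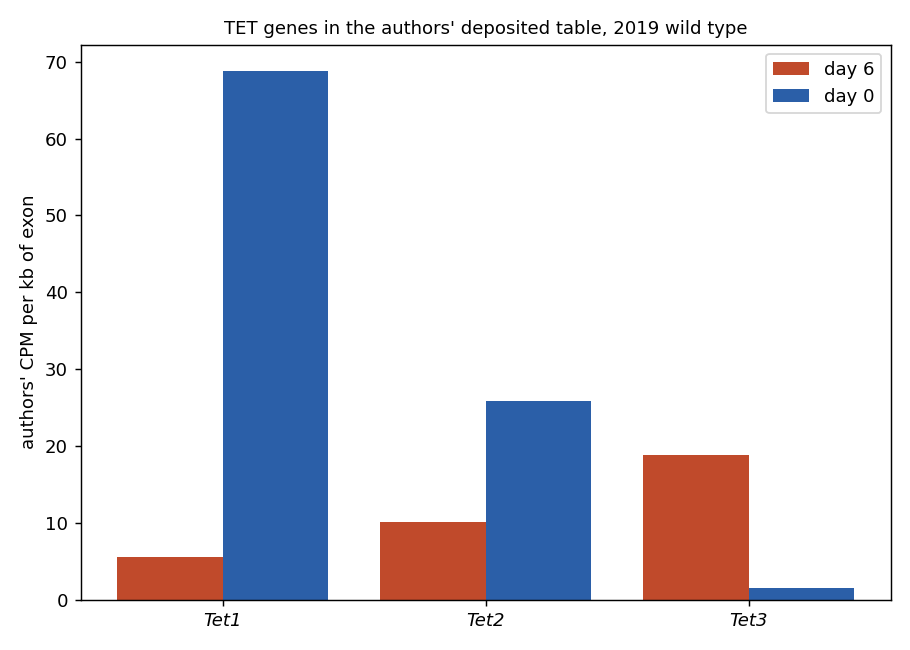
Level per kb of exon (vertical axis, authors' CPM per kb) of the 3 TET genes in 2019 wild type at day 6 and day 0, from the group means of the authors' deposited table, with no error bars. Tet3 is at 18.9 at day 6 and 1.52 at day 0, and Tet1 at 5.49 and 68.8.

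By level per length in the counts, the 2019 order of the 6 tested members at day 0 was Uhrf1 (122 CPM per kb), Dnmt3l (112), Dnmt1 (91.4), Dnmt3b (88.2), Tet1 (85.0) and Dnmt3a (33.998). Uhrf1 and Dnmt3l duplicates overlapped on this scale, and Dnmt1, Dnmt3b and Tet1 lay within the spread of the Tet1 and Dnmt3b duplicates. At day 6 the order was Dnmt1 (68.0), Uhrf1 (58.8), Dnmt3a (48.2), Dnmt3b (6.74), Tet1 (5.75) and Dnmt3l (1.70). In 2020 wild type, Dnmt3a was at 28.2 CPM per kb at day 6 and 60.1 at day 0, Dnmt3l at 1.45 and 189, and Dnmt3b at 9.21 and 153.

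Across the 17 libraries, centred on each year, Dnmt1 and Uhrf1 correlated with r = 0.990, Dnmt3b and Tet1 with 0.976, and Dnmt3a with Dnmt3b at 0.665. These are descriptions over 17 libraries that mostly share the step between day 0 and the later days. Of 13326 genes, those most like Dnmt1 included Fasn (0.994) and Kif15 (0.992), and those most like Uhrf1 were Kntc1 (0.997), Top2a and Mcm4 (both 0.996). Lef1 was most like Dnmt3a (0.993), Usp15 most like Dnmt3b (0.996), Mybl2 most like Dnmt3l (0.995) and Rbm27 most like Tet1 (0.998). Lef1, a transcription factor of the Wnt pathway, stood apart from the next 2 genes, Rad54l2 at 0.974 and Rgs16 at 0.971.

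Other genes of the pathway were followed as lists, to be read against the shares of all tested genes. In 2019 these were 37.6% higher and 33.8% lower at day 3 relative to day 0, 29.4% and 27.9% at day 6 relative to day 3, and 41.4% and 36.6% at day 6 relative to day 0. In 2020 wild type they were 36.0% higher and 34.8% lower at day 6 relative to day 0. Methyl donor supply, the enzymes that make and recycle S-adenosylmethionine and its one-carbon units, had 0 of 14 tested genes higher and 14 lower at day 3 of 2019 relative to day 0, with a median log2 change of -1.03 against 0.06 over all genes. At day 6 relative to day 0, 0 were higher and 12 lower in 2019, and in 2020 wild type 2 of 15 were higher and 12 lower. Tdh, threonine dehydrogenase, which feeds one-carbon metabolism in mouse embryonic stem cells, had a log2 change of -5.45 at day 3 and -3.95 at day 6 of 2019. Mthfd2, a mitochondrial folate enzyme, had -2.81 at day 3 and -2.67 at day 6.

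Maintenance and heterochromatin partners had 5 of 20 tested genes higher and 13 lower at day 6 of 2019 (41.4% and 36.6% of all genes), and 2 of 21 higher and 14 lower in 2020 wild type. Hells, a chromatin remodeller needed for full methylation, had a log2 change of -1.69 in 2019 and -2.39 in 2020. Zfp57, which protects methylation at imprinted regions, had -2.59 in 2019 and -3.22 in 2020. DNA replication genes, which dividing cells express, had 0 of 21 higher and 19 lower at day 6 of 2019 (36.6% of all genes lower), and 21 of 21 lower in 2020 wild type (34.8%). Their values move with those of Dnmt1 and Uhrf1, and their part in those results was not tested.

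Oxidised base removal and TET partners changed in both directions, with 7 of 20 tested genes higher and 9 lower at day 6 of 2019 (41.4% and 36.6% of all genes) and 5 of 21 higher and 11 lower in 2020 wild type (36.0% and 34.8% of all genes). Cxxc4, a CXXC domain protein that binds Tet2, averaged 52.7 CPM at day 6 against 0.141 CPM at day 0 in 2019, and 22.3 CPM against 0.603 CPM in 2020. Methyl-CpG readers had 5 of 10 higher and 2 lower at day 6 of 2019 (41.4% and 36.6% of all genes). Germline genes known to be silenced by promoter methylation had 9 of 15 higher and 5 lower at day 3 relative to day 0, then 0 higher and 11 lower at day 6 relative to day 3, and 6 higher and 6 lower at day 6 relative to day 0, all in 2019. In 2020 wild type, 1 of 17 was higher and 12 lower at day 6 relative to day 0, and 13 of 17 were lower in H3.3K27A (37.2% of all genes) and 12 of 17 in the knockout (36.4%). The largest called log2 change on that list at day 6 relative to day 0 of 2019 wild type was that of Zfp42, which is also a pluripotency marker, with -5.90. In 2020 wild type Hormad1, a protein of the meiotic chromosome axis, had -6.64, Sycp3, a protein of the synaptonemal complex, -6.37, and Zfp42 -4.50.

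At chromatin, H3K27me3 peaks in both duplicates covered 1 of the 13 member promoters at day 6 (11.8% of all promoters) and 4 at day 0 (18.9%). At day 6 this was the first Tet3 start, and at day 0 the first Dnmt3a start, Dnmt3b and both Tet3 starts. H3.3K27me3 peaks covered 0 of 13 at day 6 (3.11% of all promoters) and 2 at day 0 (11.8%), namely Dnmt3b and the first Tet3 start. The H3.3K27me3 libraries at day 6 were the shallowest of all ChIP libraries, with 33.62 and 37.76 M tags against 81.24 and 55.21 M at day 0. Their filtered peaks numbered 26215 and 14483 at day 6 and 14796 and 12690 at day 0. Whether depth limited the calls at these promoters was not tested. No start of Dnmt1, Uhrf1, Dnmt3l, Tet1 or Tet2, and not the second start of Dnmt3a, had a peak of either mark in any library. With so few member promoters, these shares lie near the background.

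Of the members, Tet3 held the longest H3K27me3 peaks. At day 6 they spanned chr6:83448861-83463432 (14.6 kb, enrichment 2.30 over the genome-wide mean) and chr6:83451394-83466143 (14.8 kb, 2.31), against chr6:83405564-83461580 (56.0 kb, 4.25) and chr6:83414080-83468020 (53.9 kb, 4.76) at day 0. The day 6 peaks kept to the first start, and the day 0 peaks reached past the second start into the gene body. H3.3K27me3 peaks at day 0 lay at the first start (10.1 and 5.7 kb) and within the gene (14.1 and 12.5 kb), and at day 6 none was called. The enrichment is the authors' value for each peak.

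At Dnmt3b the day 6 H3K27me3 peaks were 1.2 kb long, upstream of the promoter window, in duplicate 1 and 9 kb long in duplicate 2. The day 0 peaks were 19.8 and 17.5 kb long, ended shortly after the start and had an enrichment of 2.52 and 3.84. H3.3K27me3 peaks of 15.2 and 20.4 kb lay over the same upstream stretch at day 0. Dnmt3a had no H3K27me3 peak at its start at day 6 and peaks of 14.1 and 13.7 kb at day 0, with a 5.3 kb H3.3K27me3 peak in duplicate 2 alone at day 0. Within Tet1, 1 H3.3K27me3 peak was called in each day 0 duplicate, at places that did not overlap.

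**Figure D4:**
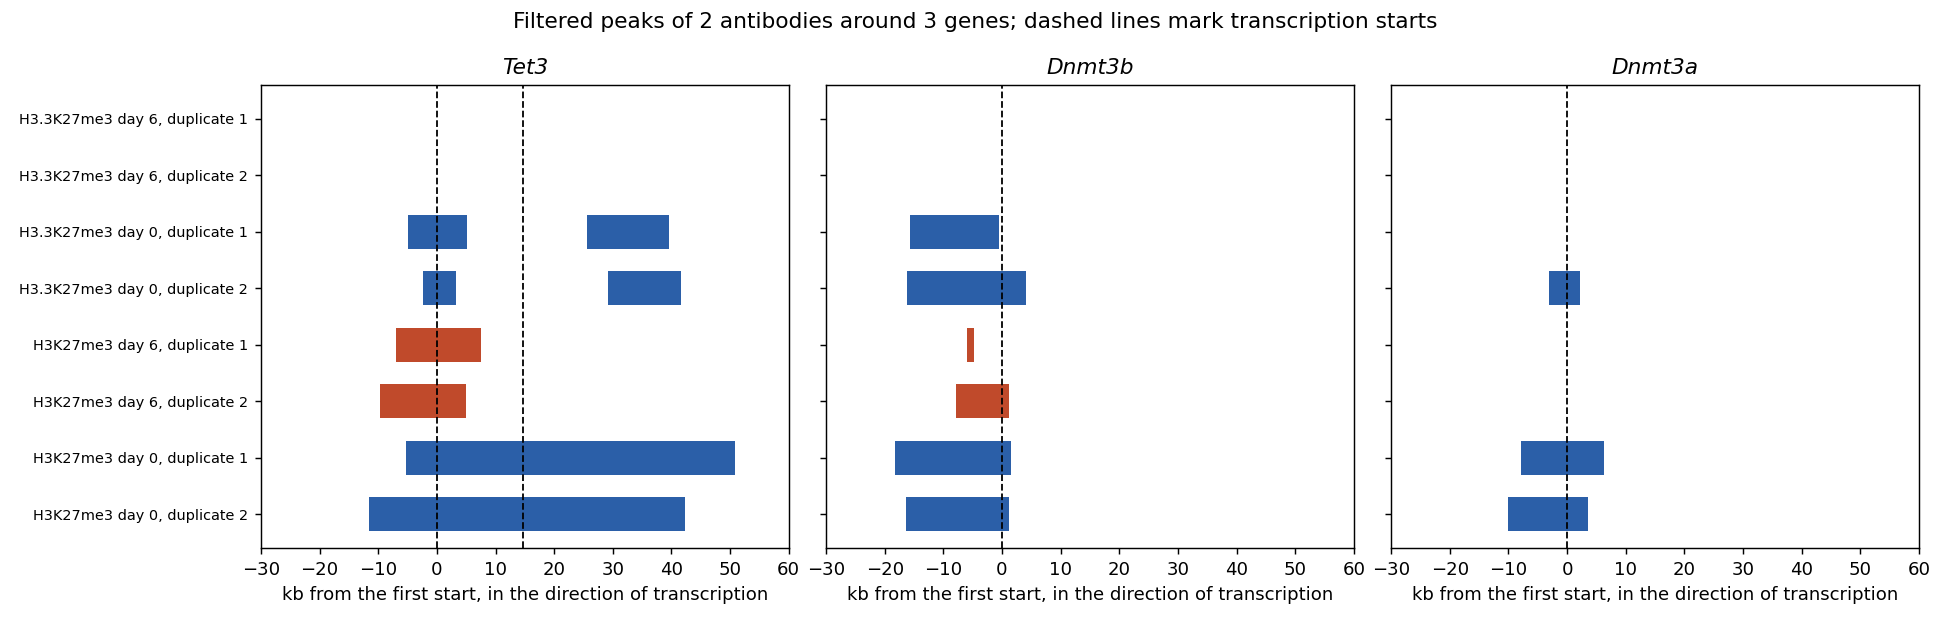
Filtered peaks (bars) of H3.3K27me3 and H3K27me3 in each ChIP library around Tet3, Dnmt3b and Dnmt3a, by distance in kb from the first start, day 6 rows above day 0 rows for each antibody. Dashed lines mark starts within the window; at Tet3 the H3K27me3 peaks are 14.6 and 14.8 kb long at day 6 and 56.0 and 53.9 kb long at day 0.

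Signal per region was read from the authors' deposited tables, which scale read numbers to the smallest library and give a log2 difference of day 0 minus day 6. In the authors' deposited table for H3K27me3, the 62.5 kb Tet3 region had 1418 and 1412 at day 6 against 2392 and 2625 at day 0, a difference of 0.83 with a false discovery rate (FDR) of 2.95e-28. The Dnmt3b region (19.8 kb) had 526 and 489 at day 6 against 797 and 879 at day 0 in the authors' deposited table (0.72, FDR 5.34e-11). The Dnmt3a region (16.4 kb) had 358 and 318 at day 6 against 494 and 526 at day 0 in the authors' deposited table (0.60, FDR 1.37e-05). All 3 regions were lower at day 6, as were 30.5% of the 10491 regions in that table, with 2.57% higher. Dnmt3b RNA was lower at day 6 in both years, and Tet3 RNA, in the authors' deposited table for 2019, was higher. Dnmt3a RNA was higher at day 6 in 2019 (log2 0.50) and lower in 2020 (log2 -1.09). The ChIP libraries were sequenced in 2020, apart from the RNA, and the relation of the mark to RNA was not tested.

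H3.3 peaks in both duplicates covered 4 member promoters at day 6 (25.9% of all promoters) and 6 at day 0 (38.0%). The 4 at day 6 were Tet1, Tet2, the inner Dnmt1 start and the inner Dnmt3a start, and Uhrf1 and Dnmt3b were added at day 0. In the authors' deposited table for H3.3, the 97.3 kb Dnmt3b region had 2351 and 2264 at day 6 against 3649 and 3692 at day 0 (0.67, FDR 1.6e-33). It spans chr2:153557504-153654780 and lies mostly upstream of the Dnmt3b start. The regions named next also extend beyond their genes, so these values are not those of the genes alone. The authors' deposited table gave 0.59 for a 121.4 kb Dnmt1 region (FDR 1.45e-26), 0.48 for a 293.6 kb Tet1 region (FDR 5.71e-26), 0.39 for a 107.7 kb Tet2 region (FDR 3.4e-12) and 0.34 for a 117.9 kb Uhrf1 region (FDR 4.86e-09).

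Neither Tet3 region passed the threshold for H3.3 in the authors' deposited table. A 34.2 kb region had 934 and 894 at day 6 against 807 and 871 at day 0 (-0.12, FDR 0.226), and a 65.1 kb region had 1885 and 1839 at day 6 against 1868 and 1927 at day 0 (0.03, FDR 0.748). The 3 Dnmt3a regions had differences of 0.34, 0.28 and -0.20 in the authors' deposited table (FDR 0.037, 0.0208 and 0.138). Of its 14812 regions, 36.4% were lower and 13.9% higher at day 6. H3 peaks in both duplicates covered 0 member promoters at day 6 (2.55% of all promoters) and 0 at day 0 (6.04%). In the authors' deposited table for H3, 2 regions over Tet1 were lower at day 6, with differences of 0.31 (FDR 0.0109) and 0.23 (FDR 0.031), with 16.6% of the regions lower and 9.23% higher. A table of this kind for H3.3K27me3 was not analysed here.

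**Figure D5:**
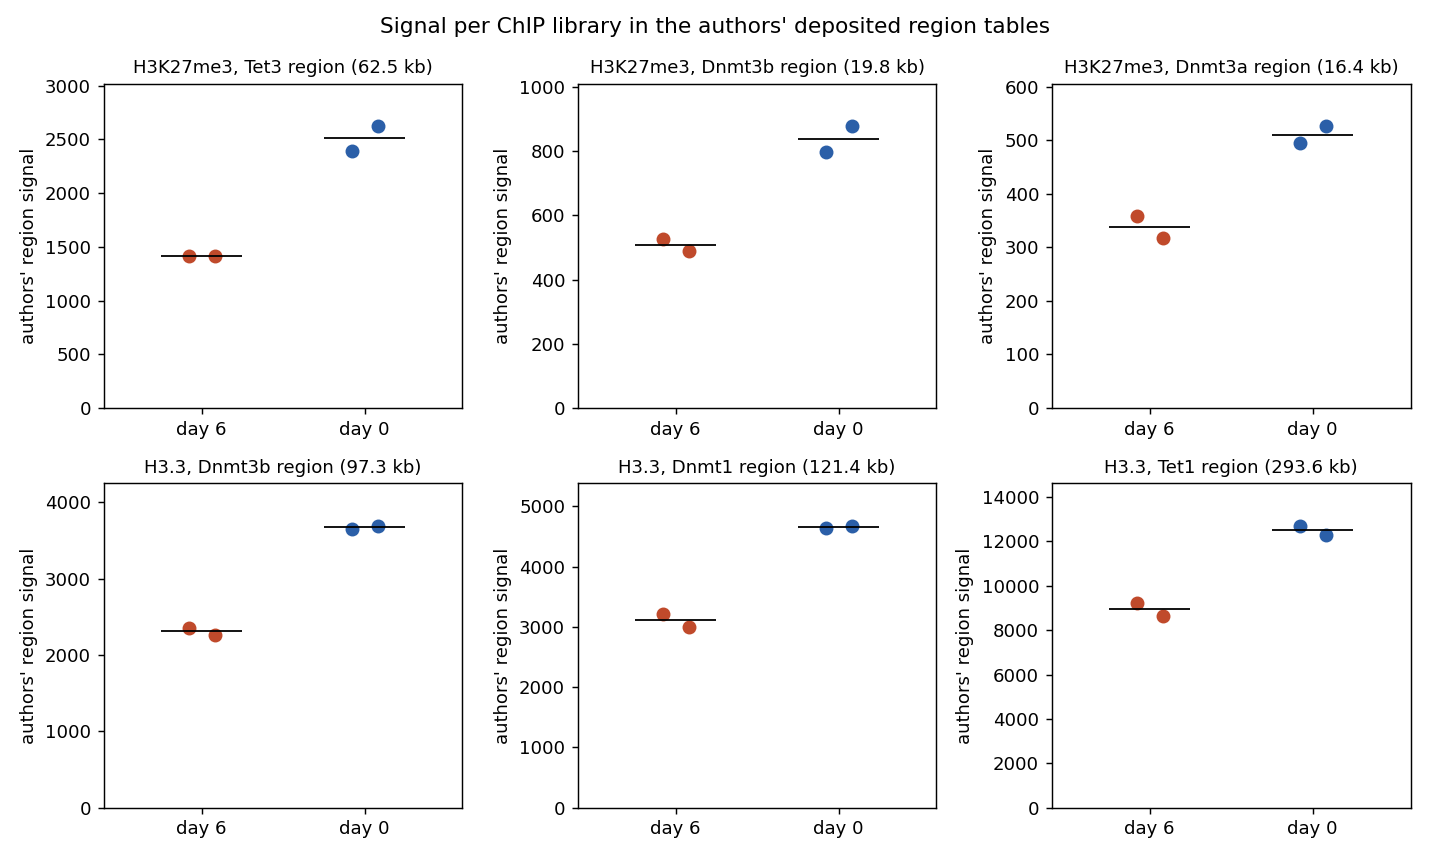
Scaled signal (vertical axis, from 0) per ChIP library in the authors' deposited region tables, at day 6 and day 0. Panels show H3K27me3 at Tet3, Dnmt3b and Dnmt3a, and H3.3 in regions over Dnmt3b, Dnmt1 and Tet1 that extend beyond each gene. Points are the 2 libraries and bars their mean; both day 6 libraries are below both day 0 libraries in each panel.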

How the data were processed

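RNA reads were aligned to mm10 with STAR 2.5.2a and assigned to gene symbols by HTSeq, as the submitters' processing notes list. The values the authors deposited are raw counts. Whether counting used strand is not given in the sources used here, so a gene and a partner on the other strand may share reads. Ambiguous reads were 7.40 to 9.54% in 2019 and 10.7 to 11.9% in 2020, reads in no feature 25.7 to 43.3% and 11.3 to 16.8%, and both were left out. Counts were tested in R 4.3.3 with edgeR 4.0.16 (filterByExpr, TMM, quasi-likelihood test, Benjamini-Hochberg, adjusted p below 0.05), with the 2019 and 2020 libraries fitted apart and 1 mean per group. For CPM, each count was divided by its library's total in M after TMM scaling within its year. Level per length is CPM per kb of merged exons of the annotation. Standard errors are approximate.

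For chromatin, the 3 runs of a library were joined before MACS2 2.2.6 searched it for peaks without a control library, per the file headers. The authors deposited for each peak a fold enrichment (its ratio to the genome-wide mean) together with a −log10 p-value. How their filtered lists were made is not stated. The authors' deposited region tables hold a signal per library, a log2 difference and a p-value with its FDR; the submitters' processing notes name DiffBind. The authors' deposited RNA table holds mean CPM, log2 changes and p-values; the same notes name DESeq2. A promoter counted as covered when a filtered peak of both duplicates overlapped it by any length. Sequences came from RefSeq (GRCm38.p6), the same build as mm10.

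The members and gene lists were chosen with earlier results of these data known. All 8 members are named, at most 3 genes per other list and comparison (called, largest absolute log2 change), and the 3 genes with the highest Pearson r of log2 CPM (prior count 2) to each member. Some genes that this rule names are not reported here. Same-numbered duplicates did not deviate together (r from -0.02 to 0.09 over 3 pairs in 2019 and from -0.36 to 0.14 over 10 pairs in 2020), so no pairing was used. The scripts were tested on simulated data. Alternatives were DESeq2 size factors, library totals, no count filter, DESeq2 1.42.0, a replicate block, other sample sets, leaving out each library, and other peak rules.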

Additional observations from a re-analysis of the deposited data

Results flagged for a closer look

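The wild-type change from day 0 to day 6 differed between the 2 sequencing years in 4 of the 6 tested members, by the interaction test of edgeR with Benjamini-Hochberg adjustment. The difference on the log2 scale, 2020 minus 2019, was -0.55 for Dnmt1, -1.39 for Uhrf1, -1.61 for Dnmt3a and -1.16 for Tet1. With library totals in place of TMM, Dnmt1 was at -0.36 and was not called (adjusted p = 0.0576). For Dnmt3a the change had opposite signs, -1.09 in 2020 and 0.50 in 2019. For Dnmt1, Uhrf1 and Tet1 it was negative in both years and more so in 2020. The median difference of all genes was -0.13. Both day 6 libraries of each year show the direction of these changes, and 2020 rests on 1 wild-type day 0 library.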

How the results depend on the processing

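In 1680 refits of single members, 1614 kept their side of the threshold and their direction where called, 17 lost a call and 49 gained one; 30 changed sign, 0 of them called in either setting. The day comparisons within wild type, H3.3K27A and the knockout kept their member counts under every alternative that was run. Scaling by library totals moved the median of all genes by 0.23 (day 3) and 0.26 (day 6) in 2019, and in 2020 by 0.44 in wild type, 0.31 in the knockout and 0.41 in H3.3K27A, without a change of sign in a called member; relative to that median the changes were close to those of TMM. For the year difference, Dnmt1 was then at -0.36 (adjusted p = 0.0576).

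Counts of members between lines moved more, and are given here without the share of all genes called in the same refit. H3.3K27A against wild type at day 0 had 1 call with library totals, no filter, DESeq2, the compared groups alone or all 17 libraries, and 2 excluding both knockout day 6 libraries (against 0); the knockout against wild type had 1 with the compared groups alone. H3.3K27A against the knockout at day 0 had 1 with no filter, DESeq2 or excluding the knockout day 6 libraries, and 2 with the compared groups alone. At day 6, the knockout against wild type had 0 with the compared groups alone and 2 with all 17 libraries; H3.3K27A had 1 against wild type and 0 against the knockout with the compared groups alone. The day effect of H3.3K27A minus knockout had 1 with no filter or all 17 libraries, and minus wild type 1 with no filter, DESeq2, the compared groups alone, all 17 libraries or excluding the knockout day 6 libraries. The cause of each was not tested.

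Leaving out 1 library gave 0 to 1 calls for H3.3K27A against wild type and against the knockout at day 0, 0 to 4 for the knockout against wild type and for H3.3K27A against the knockout at day 6, 0 to 3 for the day effects of H3.3K27A minus knockout and of knockout minus wild type, 0 to 1 for H3.3K27A minus wild type, and 4 to 6 for the year difference. These ranges are given without the share of all genes called in each refit, so they are not results about the members. With the replicate number as a block, the knockout against wild type at day 6 had 0 calls, with Dnmt3l at an adjusted p of 0.0713. The block changed no other member count, and the numbers share no recorded pairing.

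Peak counts fell to 0 of 13 promoters at an enrichment of at least 5 for H3.3K27me3 day 0, H3K27me3 days 0 and 6 and H3.3 days 0 and 6. Under that rule only 0.141 to 1.97% of all promoters had a peak in these groups. H3.3K27me3 day 0 gave 1 when 50% of the promoter had to be covered (10.1% of all promoters). A peak in either duplicate gave 2 for H3K27me3 day 6, 11 for H3.3 day 0 and 2 for H3 day 0, and 5 kb to either side gave 2 for H3K27me3 day 6. Of all promoters, 23.6% (H3K27me3 day 6), 54.9% (H3.3 day 0) and 22.2% (H3 day 0) had a peak in either duplicate. With 5 kb to either side the share for H3K27me3 day 6 was 13.3%. Single duplicates gave 1 to 2 for H3K27me3 day 6, 2 to 3 for H3.3K27me3 day 0, 8 to 9 for H3.3 day 0, 5 for H3.3 day 6 and 1 for H3 day 0. These last counts are given without the share of all promoters. That share moves with the rule, so the counts are not results about the members. Dnmt3l had the lowest levels of the tested members at day 6, from 1.97 CPM in an H3.3K27A library to 24.1 CPM in a knockout library. Whether depth limited its values was not tested.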

Other observations

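H3f3b, the other gene of H3.3, had 599 CPM in both H3.3K27A libraries at day 6 against 885 and 894 CPM in wild type (log2 -0.57, adjusted p = 0.00671), and 499 and 501 CPM against 797 CPM at day 0 (log2 -0.67, adjusted p = 0.00405). H3f3a in that line was low as well, at 20.4 CPM in both day 6 libraries against 119 and 114 CPM in wild type. The knockout had 1134 and 1051 CPM of H3f3b at day 6 and 872 and 914 CPM at day 0. An H3.3K27me3 peak of 7.1 kb lay within Tet2 at day 6 in duplicate 2 alone, with an enrichment of 2.79.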
